A study of Rattus norvegicus with 12 samples.

Results

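Hyaluronan and the proteins that aggregate on it were followed through 8 genes in rat heart after myocardial infarction: the proteoglycan core genes Acan and Vcan, the link protein genes Hapln1 and Hapln3, the hyaluronan synthases Has1 and Has2, the depolymerising protein gene Cemip and the receptor gene Cd44. They were taken by gene symbol from a table of 30560 Ensembl genes, where 8 of 8 were found, and all 8 were among the 18182 genes with at least 10 counts in total. Acan (204 counts over all rats) and Hapln1 (58 counts) passed this minimum through the infarcted rats alone, since the Sham rats held 2 and 3 of these counts. The other totals ranged from 244 counts for Cemip to 8801 for Vcan.

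The RNA came from the left ventricle of male Wistar rats that were 7 weeks old at surgery. Sham rats had the chest opened and closed with no suture and received vehicle (0.5% carboxymethylcellulose). MI rats had the left anterior descending coronary artery permanently ligated and received the same vehicle, and MI + UA rats had the same ligation and received Urolithin A (UA, a compound that gut bacteria form from dietary ellagitannins), given as 50 mg/ml in the design text. Gavage was daily for 8 weeks in each group and began 24 hours after surgery by that text, while the study's results give another dose and a later start. Each group held 4 rats with 1 library each, made after ribosomal RNA depletion from 20 µm sections of formalin-fixed, paraffin-embedded blocks of the middle ventricle. Such sections mix scar, border and remote muscle in proportions not given for the sections sequenced, so fewer cells of a type and less RNA per cell cannot be told apart in any value here. The label of rat 66 puts it in MI + UA, but it stands among the vehicle-treated MI rats in a supplementary list of the study, and it was counted here by its label.

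Hyaluronan is a long, unsulfated sugar chain that synthases at the cell surface extrude into the matrix. Lecticans such as aggrecan (Acan) and versican (Vcan) carry chondroitin sulfate chains and bind hyaluronan through a globular domain, and link proteins hold that bond in place, which gives large hydrated aggregates. Aggrecan is the main proteoglycan of cartilage, while versican and hyaluronan belong to the provisional matrix of developing heart valves and healing wounds.

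In MI versus Sham, 4 of the 8 genes were higher and 0 were lower at a threshold of 0.05 on the adjusted p-value of edgeR's quasi-likelihood test, while 5.82% of all genes tested were higher. Vcan rose 2.36-fold and Has1 2.03-fold. Acan and Hapln1, with 2 and 3 reads in Sham, had log2 fold changes of 5.23 and 3.08, which were 3.15 (adjusted p = 0.138 by edgeR) and 1.87 (adjusted p = 0.264) without MI rat 36. As both passed the count minimum only through the infarcted rats, the counts over 8 genes are a description. Of the other 6 genes 2 were higher, and their median log2 fold change was 0.82. The median log2 fold change of the 8 genes was 1.03, beside 0.0258 over all genes tested. Every MI rat lay above every Sham rat for Vcan and Has1, 2 of the 6 genes other than Acan and Hapln1, which held for 8.12% of all genes. It also held for Hapln1, where the nearest rats of the 2 groups had 2 reads each. Of the 4 calls, that of Vcan passed in each of the 8 fits that left out 1 rat. The number of genes called fell to 1 without Sham rat 38 or MI rat 36, to 2 without Sham rat 12, 17 or 32, and to 3 without MI rat 57, 61 or 89.

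**Figure D1:**
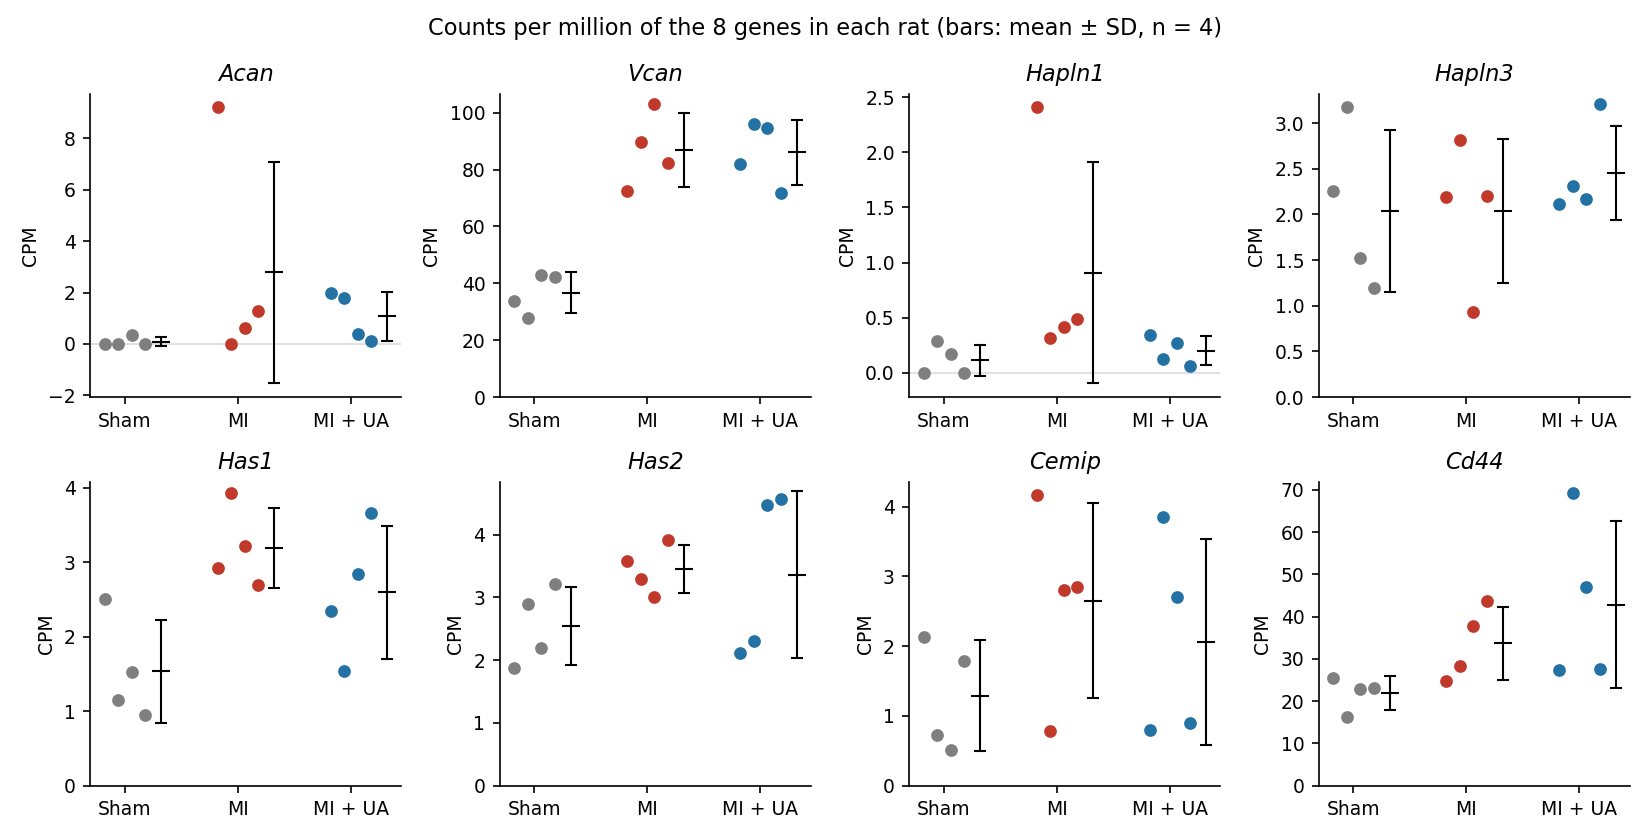
Counts scaled to a common library size (CPM, linear axes) for each of the 8 genes, with 1 point per rat and the mean ± SD of 4 rats beside each group. The MI and MI + UA rats lie between 71.9 and 103 CPM for Vcan, above the 4 Sham rats at 27.9 to 43.1, and for Acan and Hapln1 one MI rat (rat 36) stands far above all others.

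The 250 bases before the transcription start are shown for the 4 genes called higher in MI, although their order among the MI rats differs (rat 36 had the highest Acan and Hapln1 and the lowest Vcan). The sequences are from RefSeq on build GRCr8, where 6 of the 8 genes matched, while the counts were made on mRatBN7.2. Capitals mark matches, on either strand, to 6 motifs: the TATA box TATAAA, the GC box GGGCGG, the AP-1 site TGANTCA, the SMAD box CAGACA, the TEAD site GGAATG and the SOX site ACAATG.
Acan, chr1:142390701-142390950, plus strand: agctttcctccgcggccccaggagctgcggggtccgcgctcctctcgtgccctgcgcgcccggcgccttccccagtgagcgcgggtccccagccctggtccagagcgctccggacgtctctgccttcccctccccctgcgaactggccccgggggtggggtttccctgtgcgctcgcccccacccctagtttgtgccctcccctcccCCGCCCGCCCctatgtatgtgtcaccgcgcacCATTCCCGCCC
Vcan, chr2:22595956-22596205, minus strand: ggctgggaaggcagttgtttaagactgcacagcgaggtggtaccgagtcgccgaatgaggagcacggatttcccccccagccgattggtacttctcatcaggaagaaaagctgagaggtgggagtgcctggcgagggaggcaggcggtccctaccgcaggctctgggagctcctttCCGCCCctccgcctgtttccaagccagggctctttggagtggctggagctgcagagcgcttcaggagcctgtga
Hapln1, chr2:22366717-22366966, plus strand: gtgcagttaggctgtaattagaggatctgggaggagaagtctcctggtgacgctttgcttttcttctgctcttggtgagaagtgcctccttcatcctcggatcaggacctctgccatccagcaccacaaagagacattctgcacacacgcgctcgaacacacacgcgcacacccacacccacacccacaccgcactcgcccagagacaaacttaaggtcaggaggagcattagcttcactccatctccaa
Has1, chr1:67378445-67378694, minus strand: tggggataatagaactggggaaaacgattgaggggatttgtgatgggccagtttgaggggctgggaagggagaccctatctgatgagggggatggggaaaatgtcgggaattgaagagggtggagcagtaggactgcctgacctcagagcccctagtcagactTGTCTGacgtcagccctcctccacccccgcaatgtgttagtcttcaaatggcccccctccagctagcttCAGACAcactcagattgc
The Acan window held 3 GC boxes, 2 of them overlapping, at 43 to 38, 39 to 34 and 6 to 1 bases before the start, and a TEAD match at 11 to 6 that overlapped the last. RefSeq gives Vcan 2 starts, of which the upstream one is shown, with a GC box 74 to 69 bases before it, or 172 to 167 before the other start, and the Has1 window had 2 SMAD boxes, at 87 to 82 and 18 to 13. The Hapln1 window had none of the 6 motifs. Of 33465 rat promoter windows of this length, 30.5% held a GC box, 17.2% a SMAD box, 12.9% a TATA box, 12.1% a TEAD match, 11.1% a SOX match and 6.34% an AP-1 match, and none of the 6 was in all 4 windows shown. GC content was 73.6% for Acan, 61.6% for Vcan, 54.8% for Has1 and 54.0% for Hapln1, beside a median of 51.2% over all windows. Vcan and Hapln1 are neighbours with 0 protein-coding genes between them in the RefSeq annotation, as are Acan and Hapln3.

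Versican had the most reads behind it. In CPM, which are counts scaled to a common library size, Vcan (ENSRNOG00000029212) had 33.7, 27.9, 43.1 and 42.4 CPM in Sham rats 12, 17, 32 and 38. In MI rats 36, 57, 61 and 89 it had 72.4, 89.7, 103 and 82.4 CPM. The lowest MI rat was thus well above the highest Sham rat. The group means were 36.8 ± 7.32 CPM (SD, n = 4) in Sham and 86.9 ± 13 CPM (SD, n = 4) in the MI rats, and the log2 fold change was 1.24 (standard error, SE, 0.14 and adjusted p = 5.45e-06 by edgeR). Leaving out each rat in turn gave 1.13 to 1.32, and the largest adjusted p was 7.58e-05.

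In MI + UA rats 29, 58, 64 and 66, Vcan had 81.9, 96.2, 94.5 and 71.9 CPM. These values overlap those of the MI rats, and the mean was 86.1 ± 11.4 CPM (SD, n = 4). The log2 fold change of MI + UA versus MI was -0.02 (95% interval -0.28 to 0.25, edgeR adjusted p = 1). Against Sham, which serves both comparisons, the MI + UA rats were higher by 1.22 (SE 0.13, adjusted p = 7.76e-06 by edgeR). The order of the Vcan means was therefore Sham, MI + UA and MI, and those of MI + UA and MI do not differ beyond their spread.

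Fibroblast markers were higher in the groups with more Vcan, though not in the same order by rat: MI rat 57 had 89.7 CPM of Vcan with a fibroblast sum of 2320, the lowest in MI, and rat 89 had 82.4 with the highest, 3760. The summed level of 10 fibroblast markers ran from 1210 to 1540 CPM in Sham and from 2320 to 3760 in MI, and 8 of the 10 were higher in MI. In MI + UA the sum ran from 2340 to 3800 CPM. The summed level of 9 cardiomyocyte markers ran from 16000 to 18600 CPM in Sham and from 10700 to 11400 in MI, with 9 of 9 lower, and from 11200 to 14100 in MI + UA. The 8 smooth muscle and pericyte markers, 4 of them higher in MI, gave 640 to 658 CPM in Sham, 642 to 808 in MI and 626 to 791 in MI + UA. The part of these shifts in the Vcan result was not tested.

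Aggrecan RNA was close to absent in Sham and uneven after infarction. Acan (ENSRNOG00000028992) had 0, 0, 2 and 0 counts in Sham rats 12, 17, 32 and 38. MI rats 36, 57, 61 and 89 had 126, 0, 6 and 16 counts, or 9.21, 0, 0.623 and 1.3 CPM. One MI rat thus had no read at all, and rat 36 held 61.8% of all Acan counts of the series. A count of 0 allows up to 3 counts, which corresponded to between 0.169 and 0.505 CPM depending on the library. The groups overlapped, and 12 of the 16 MI and Sham pairs had the higher value in MI.

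The mean Acan level was 0.0842 ± 0.168 CPM (SD, n = 4) in Sham and 2.78 ± 4.32 CPM (SD, n = 4) in MI, and the log2 fold change was 5.23 (SE 1.4, adjusted p = 0.0173 by edgeR). It compares 2 Sham reads with 148 in MI. Per effective read the pooled ratio was 51.5 (95% interval 14 to 430, covering counting error only). Without rat 36, with 22 MI reads, it was 11.4 (2.79 to 99.7), the log2 fold change was 3.15 and the adjusted p was 0.138. The call was also lost without Sham rat 12, 17 or 38 (adjusted p = 0.0599, 0.0539 and 0.0647), with log2 fold changes of 4.84, 4.90 and 4.81. Without Sham rat 32, which held both Sham reads, the log2 fold change was 8 (adjusted p = 0.0425 by edgeR). That fit has no Sham read, so the size of the change is not resolved.

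MI + UA rats 29, 58, 64 and 66 had 35, 14, 3 and 2 Acan counts, or 2, 1.8, 0.406 and 0.113 CPM. Reads were present in each of these 4 rats, at or above the 3-count limit in 3 of them. The mean was 1.08 ± 0.958 CPM (SD, n = 4). The log2 fold change was -1.49 against MI (95% interval -3.14 to 0.16, edgeR adjusted p = 1) and changed sign without rat 36, to 0.58. Against Sham it was 3.74 (SE 1.6, adjusted p = 0.172 by edgeR). Of the 3 differences between groups, only that of MI and Sham passed for Acan, with the limit given for rat 36.

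Of the link protein genes, Hapln1 passed the test and Hapln3 did not. Hapln1 (ENSRNOG00000032002) encodes the link protein of cartilage and of the embryonic heart. It had 0, 2, 1 and 0 counts in Sham rats 12, 17, 32 and 38, and 33, 2, 4 and 6 counts in MI rats 36, 57, 61 and 89. Scaled to CPM, the 4 MI rats (2.41, 0.314, 0.415 and 0.489) lay above the 4 Sham rats (0, 0.289, 0.168 and 0), but the nearest rats of the 2 groups, 17 and 57, had 2 reads each. The means were 0.114 ± 0.141 CPM (SD, n = 4) in Sham and 0.908 ± 1.01 CPM (SD, n = 4) in MI, and the log2 fold change was 3.08 (SE 0.94, adjusted p = 0.0372 by edgeR).

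Pooled per effective read, Hapln1 was 10.4 times as abundant in MI as in Sham (95% interval 3.35 to 52.6). Without rat 36 this ratio was 4.13 (1.12 to 22.8), the log2 fold change was 1.87 and the adjusted p was 0.264. The call was also lost without Sham rat 12, 32 or 38 (adjusted p = 0.103, 0.0698 and 0.115, log2 fold changes of 2.67, 3.32 and 2.65) and with rat 66 counted in MI (0.107). DESeq2 gave a log2 fold change of 3.14 with no adjusted p.

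MI + UA rats 29, 58, 64 and 66 had 6, 1, 2 and 1 Hapln1 counts, or 0.343, 0.128, 0.271 and 0.0563 CPM, which overlap both other groups. The log2 fold change against MI was -2.22 (SE 0.75), with an unadjusted p of 0.00795 and an adjusted p of 1 in edgeR's test. It moved to -1.02 at the least when 1 rat was left out. Without rat 36 the pooled ratio of MI + UA to MI, 0.185 (0.0831 to 0.372), became 0.467 with an interval from 0.181 to 1.18. Against Sham the log2 fold change was 0.86 (95% interval -1.5 to 3.22, edgeR adjusted p = 0.731).

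Hapln3 (ENSRNOG00000022321), a link protein with wider tissue expression, showed no change that the test detected. Its values were 2.26, 3.18, 1.52 and 1.19 CPM in Sham rats 12, 17, 32 and 38, and 2.19, 2.82, 0.934 and 2.2 CPM in MI rats 36, 57, 61 and 89. The MI + UA rats 29, 58, 64 and 66 had 2.11, 2.31, 2.17 and 3.21 CPM. All 3 groups overlap. The log2 fold change was -0.01 in MI versus Sham (95% interval -0.74 to 0.71, edgeR adjusted p = 0.989) and 0.30 in MI + UA versus MI (-0.36 to 0.97, adjusted p = 1).

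Rat 36, which carried most of the Acan and Hapln1 reads, also carried cartilage collagen RNA. Col2a1, the collagen of cartilage matrix, had 405 counts (29.6 CPM) in rat 36 and 0 in each of the other 3 MI rats. It had 3, 0, 0 and 0 counts in the Sham rats and 0, 0, 0 and 1 in the MI + UA rats, so rat 36 held 99.0% of its reads. Summed over 13 cartilage markers, which do not include Acan or Hapln1, rat 36 reached 111 CPM, while the other MI rats had 47 to 59.8, the MI + UA rats 48 to 68.1 and the Sham rats 19.5 to 23.5. Not every marker was high in rat 36. Sox9 had 272 counts there, 9.91% of its total, and at 19.9 CPM rat 36 was the lowest MI rat, where the highest had 29.6. Besides Col2a1, some matrix genes of that list were higher in the other infarcted rats as well. In MI versus Sham 9 of the 11 tested had a positive log2 fold change. Col9a1 (-0.29) and Ucma (-1.1) were negative, and neither these nor Col9a2 (0.35) and Col11a2 (0.17) passed. In the 3 MI rats other than rat 36, Col11a1 was at 3.45 to 12.8 CPM against 0.505 to 1.63 in Sham, Comp at 4.23 to 7.17 against 0.125 to 0.238, and Chad at 5.96 to 10.2 against 0.866 to 1.25, while rat 36 had 23.4, 11.3 and 18.3 CPM. Of 5 genes of the list with at least 10 counts in Sham, 3 (Col11a1, Chad and Sox9) were higher in MI versus Sham. Of the 6 tested genes with fewer, which could pass the count minimum only through the infarcted rats, Comp and Col2a1 passed, Col2a1 through rat 36 alone, and the defining genes Matn1 and Matn3 were at 0 or 1 count in each rat. The part of this in the Acan and Hapln1 values was not tested, and both calls without rat 36 are given with those genes.

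**Figure D2:**
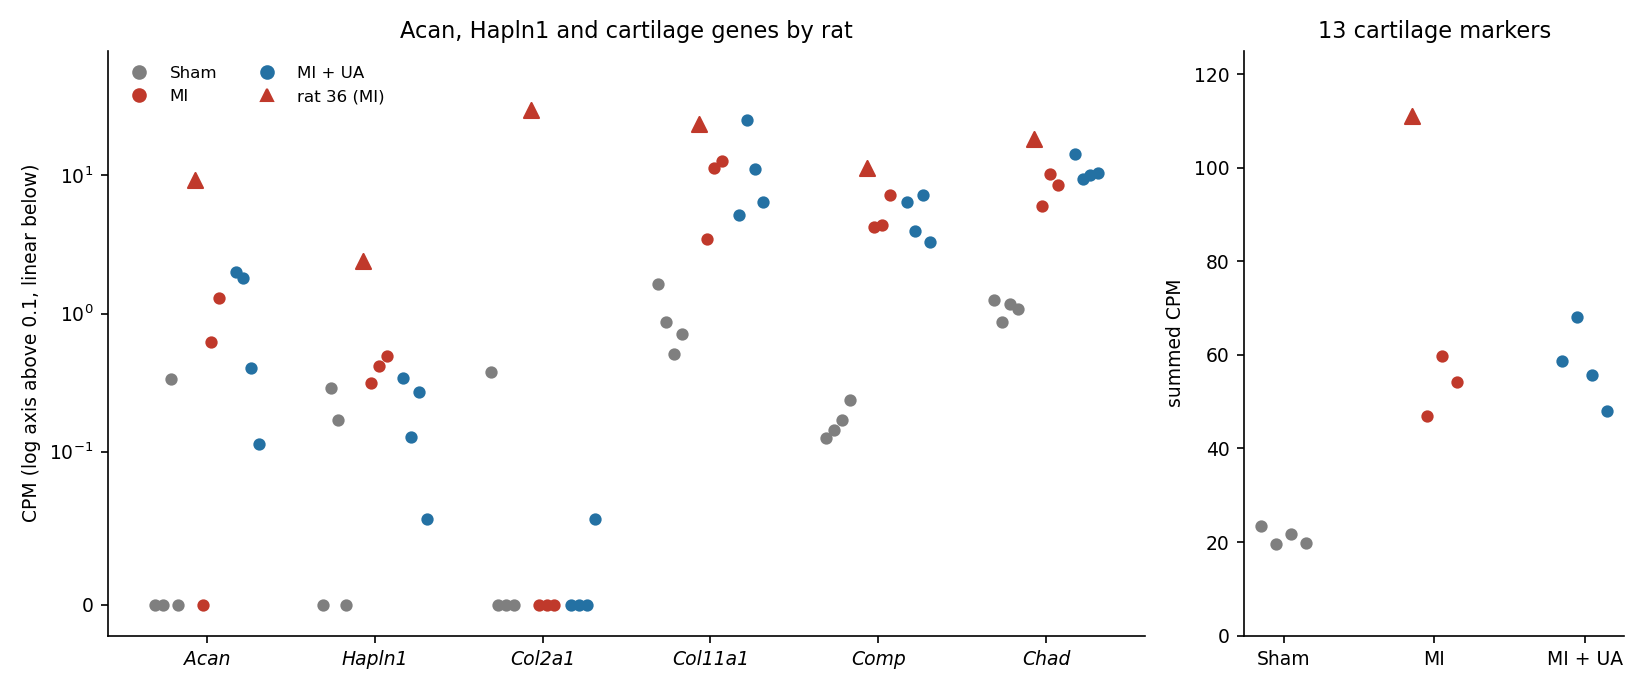
CPM of Acan, Hapln1 and 4 cartilage genes in each rat (left, logarithmic above 0.1 CPM and linear below) and the summed CPM of 13 cartilage markers (right, linear), with a triangle for rat 36. Col2a1 stands at 29.6 CPM in rat 36 and at 0 in the other 3 MI rats, while Comp and Chad are higher in all 8 infarcted rats than in the 4 Sham rats.

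Of the synthases, Has1 passed the test in MI and Has2, the synthase that endocardial cushions of the embryonic heart need, did not. Has1 (ENSRNOG00000010994) had 2.51, 1.15, 1.52 and 0.954 CPM in Sham rats 12, 17, 32 and 38. MI rats 36, 57, 61 and 89 had 2.92, 3.92, 3.22 and 2.69 CPM, all above the Sham rats, though by little over rat 12. The means were 1.53 ± 0.691 CPM in Sham and 3.19 ± 0.534 CPM in MI (SD, n = 4 each), and the log2 fold change was 1.02 (SE 0.32, adjusted p = 0.045 by edgeR). It rested on 45 reads in Sham and 129 in MI. Fits without 1 rat gave 0.83 to 1.39, and only the fit without Sham rat 12 kept the call (adjusted p = 0.0131). Without Sham rat 17, 32 or 38 the adjusted p was 0.12, 0.0924 and 0.155, and without MI rat 36, 57, 61 or 89 it was 0.0621, 0.0914, 0.0893 and 0.0587.

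Has1 in the MI + UA rats 29, 58, 64 and 66 was 2.34, 1.54, 2.84 and 3.66 CPM, which overlaps both other groups. The mean, 2.6 ± 0.888 CPM (SD, n = 4), lay between those of Sham and MI. It differed from neither by the test, with a log2 fold change of -0.24 against MI (95% interval -0.82 to 0.35, edgeR adjusted p = 1) and of 0.79 against Sham (0.11 to 1.46, adjusted p = 0.147).

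Has2 (ENSRNOG00000004854) had 1.88, 2.89, 2.19 and 3.22 CPM in Sham rats 12, 17, 32 and 38 and 3.58, 3.29, 3.01 and 3.91 CPM in MI rats 36, 57, 61 and 89. Of the 16 pairs of rats, 15 had the higher value in MI, but the groups overlapped. The log2 fold change was 0.44 (SE 0.29, 95% interval -0.16 to 1.04, adjusted p = 0.384 by edgeR), an interval that includes the Has1 estimate. The MI + UA rats 29, 58, 64 and 66 had 2.11, 2.31, 4.47 and 4.56 CPM, a wider spread than in MI, with a log2 fold change of -0.05 against MI (-0.60 to 0.50, adjusted p = 1).

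Whether one synthase gained on the other was asked with the ratio of their counts within each rat, which no library scaling can move. The log2 ratio of Has1 to Has2 was -0.77 ± 0.92 (SD, n = 4) in Sham and -0.12 ± 0.36 in MI, a difference of 0.65 (two-sided exact permutation test, p = 0.286, adjusted over 8 ratio tests 0.457). Leaving out 1 rat moved that difference to between 0.34 and 1.04. In MI + UA the ratio was -0.34 ± 0.35. The same was done for Acan to Vcan, Hapln1 to Vcan and Hapln3 to Acan, in MI versus Sham and in MI + UA versus MI. The smallest p was 0.0857 (adjusted 0.457), for Hapln1 to Vcan in MI + UA versus MI. With 4 rats against 4 a p cannot go below 0.0286, and 5 of the 8 ratios would have to separate fully for any to pass after adjustment (1 alone gives 0.229), so these tests could hardly pass and do not show that the ratios were alike. That ratio went from -6.95 ± 1.4 in MI to -8.65 ± 0.88 in MI + UA. For Acan to Vcan no mean is given, since 3 Sham rats and MI rat 57 had 0 Acan counts and their ratios are set by the 0.5 counts added to each gene.

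Cemip (ENSRNOG00000012442), whose protein binds and depolymerises hyaluronan, was variable in every group. Its values were 2.13, 0.722, 0.505 and 1.79 CPM in Sham rats 12, 17, 32 and 38 and 4.17, 0.784, 2.8 and 2.85 CPM in MI rats 36, 57, 61 and 89. Rat 57 lay within the Sham range and the other 3 MI rats lay above it. The log2 fold change was 1.05 (SE 0.52, 95% interval -0.04 to 2.13, adjusted p = 0.23 by edgeR). The MI + UA rats 29, 58, 64 and 66 split into a low and a high pair, at 0.8, 3.85, 2.71 and 0.9 CPM, and differed from MI by -0.60 (-1.59 to 0.40, adjusted p = 1). Leaving out 1 rat moved this log2 fold change to between -1.1 and -0.28, and the other settings gave -0.61 to -0.05.

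Cd44 (ENSRNOG00000006094), the main cell surface receptor for hyaluronan and one that leukocytes and activated fibroblasts carry, showed its highest values in the UA group. Sham rats 12, 17, 32 and 38 had 25.5, 16.3, 22.9 and 23.2 CPM. MI rats 36, 57, 61 and 89 had 24.7, 28.4, 37.8 and 43.7 CPM, so 3 of them lay above every Sham rat and rat 36 did not. The means were 22 ± 3.95 and 33.6 ± 8.66 CPM (SD, n = 4), and the log2 fold change was 0.61 (SE 0.25, adjusted p = 0.123 by edgeR). The test passed when genes were not filtered on low counts (adjusted p = 0.0257) and when the MI + UA rats were left out of the fit (0.0216).

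MI + UA rats 29, 58, 64 and 66 had 27.4, 69.2, 47.1 and 27.7 CPM of Cd44. All 4 lay above every Sham rat, and rat 58 lay above every MI rat by a wide margin. Against Sham the log2 fold change was 0.93 (SE 0.24, adjusted p = 0.0185 by edgeR). Without Sham rat 17, or MI + UA rat 58 or 64, it was 0.81, 0.60 and 0.87, with adjusted p-values of 0.0714, 0.0838 and 0.0513. Against MI it was 0.31 (95% interval -0.17 to 0.80, edgeR adjusted p = 1), and -0.01 without rat 58.

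Macrophage and fibroblast markers were highest in the rats with the most Cd44. The summed level of 10 macrophage markers was 132 to 165 CPM in Sham, 265 to 423 in MI and 224 to 454 in MI + UA, with 9 of the 10 higher in MI versus Sham. Rats 58, 64 and 89, which had the 3 highest Cd44 levels, had macrophage sums of 406, 454 and 423 CPM and fibroblast sums of 3800, 3630 and 3760 CPM, the 3 highest of each. The 5 other infarcted rats had Cd44 between 24.7 and 37.8 CPM, macrophage sums of 224 to 337 and fibroblast sums of 2320 to 3030. The 11 markers of other leukocytes summed to 47.9 to 56.1 CPM in Sham, 60.7 to 80 in MI and 56.9 to 80.8 in MI + UA, with 1 of 10 tested higher in MI versus Sham. For endothelial markers the sums were 770 to 888, 697 to 822 and 648 to 782 CPM, and for mesothelial markers 9.6 to 16.9, 13.7 to 18.3 and 12.7 to 15.2 CPM, in the same order, with 1 of 8 lower and 0 of 6 changed in MI versus Sham. Their part in the Cd44 values was not tested.

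**Figure D3:**
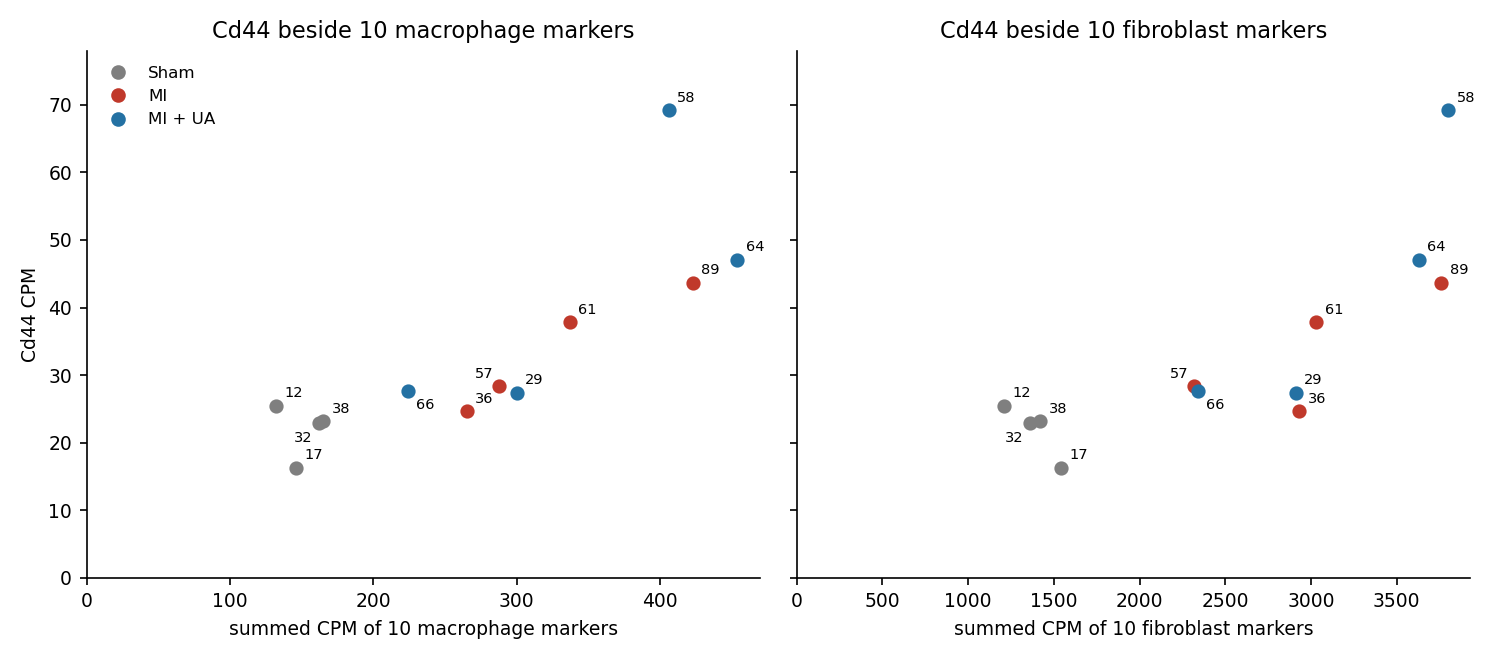
Cd44 CPM of each rat against the summed CPM of 10 macrophage markers (left) and of 10 fibroblast markers (right), with rat numbers beside the points and linear axes from 0. Rats 58, 64 and 89 have the 3 highest values on both axes of both plots, and the 4 Sham rats lie at the low end of the marker sums.

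Between MI + UA and MI, none of the 8 genes passed the adjusted threshold in edgeR's test or in DESeq2. In edgeR's test 0 of all genes tested (0%) passed. By unadjusted p-values 1 of the 8, Hapln1, was under 0.05 in edgeR, against 3.79% of all genes, and in DESeq2. For Hapln1 this p was 0.225 in edgeR's test without MI rat 36 and 0.114 with rat 66 counted in MI. The median log2 fold change of the 8 genes was -0.14, beside 0.00468 over all genes. The MI + UA rats did not separate from the MI rats at any of the 8 genes, where 2.34% of all genes separated. Against Sham, 2 of the 8 genes, Vcan and Cd44, were higher in MI + UA, with 5.16% of all genes higher, and both genes had every MI + UA rat above every Sham rat, as had 7.83% of all genes. The intervals differ in width, from -0.28 to 0.25 for Vcan to -3.14 to 0.16 for Acan, so a larger change could have been missed for Acan than for Vcan.

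**Figure D4:**
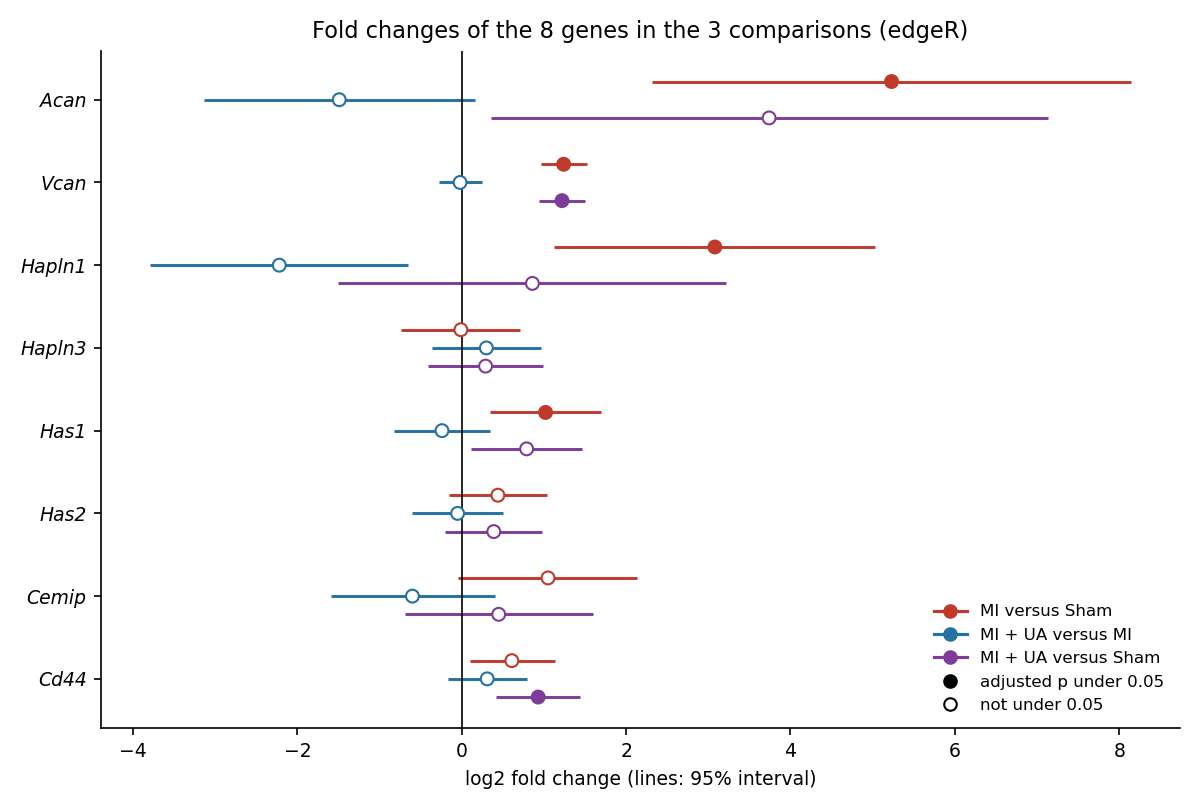
Log2 fold changes of the 8 genes (linear axis) in MI versus Sham, MI + UA versus MI and MI + UA versus Sham, with 95% intervals and filled points for adjusted p-values under 0.05. In MI + UA versus MI every point is open, and the interval of Vcan runs from -0.28 to 0.25 while that of Hapln1 runs from -3.79 to -0.65. The intervals are not adjusted for the number of genes tested, so one that leaves out 0 can stand beside an open point.

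The machinery around these genes was read from 8 lists that hold 66 other genes, of which 64 were in the table and 57 were tested. In MI versus Sham 17 of the 57 were higher and 1 was lower, against 5.82% and 5.53% of all genes, and their median log2 fold change was 0.30. In MI + UA versus MI 0 of the 57 passed in edgeR's test, and 2 (3.51%, Stab1 and B3gat3) had an unadjusted p under 0.05, near the 3.79% of all genes. Of the 18 calls in MI versus Sham, 13 held in each fit that left out 1 rat.

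Of 8 other genes of hyaluronan synthesis, which mostly supply its sugar precursors, 3 were higher and 1 was lower. Uap1, which makes UDP-N-acetylglucosamine, rose by 0.90 on the log2 scale (SE 0.18), Gfpt2, at the entry of the hexosamine pathway, of 0.83 (0.20), and Ugdh, which oxidises UDP-glucose to UDP-glucuronate, of 0.80 (0.20). Ugp2, which makes UDP-glucose for glycogen as well, fell by 0.61 (0.11) from 122 to 79.4 CPM. Has3, the third synthase, had a log2 fold change of 0.18 (adjusted p = 0.78). In the breakdown list 1 of 6 other genes rose, Cemip2, a surface hyaluronidase related to Cemip, by 0.71 (0.13).

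Among 5 other hyaluronan receptors, 2 rose: Lyve1, carried by lymphatic endothelium and resident macrophages, by 1.21 (0.20) and the scavenger receptor Stab1 by 0.97 (0.11). For both genes the 4 MI rats lay above the 4 Sham rats. Of the other lecticans and link proteins, Ncan and Hapln4 were under the count minimum, and Bcan and Hapln2 gave 0.39 and -1.62 without passing. Among other proteins that bind hyaluronan or bridge lecticans, 2 of 7 rose, Fbln1, a fibulin that binds both aggrecan and versican, by 1.41 (0.12), and Tnfaip6, which transfers heavy chains onto hyaluronan, by 1.02 (0.30). The Tnfaip6 call was lost without Sham rat 12, 17 or 38 or MI rat 61 or 89, and with rat 66 counted in MI.

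Of 7 ADAMTS proteases that can cut lecticans, Adamts15 rose by 1.43 (0.33). Adamts8 had a log2 fold change of 1.42 (0.44), and its call held in 1 of the 8 fits that left out 1 rat (that without MI rat 89) and was lost in the 2-group fit and with rat 66 counted in MI. The other proteases, Adamts1, Adamts4, Adamts5, Adamts9 and Adamts20, had log2 fold changes from 0.01 to 0.52 and did not pass. Of 17 chondroitin sulfate enzymes 5 rose: Xylt1, which starts the chain, by 1.02 (0.14), the sulfotransferase Chst12 by 0.95 (0.26), Csgalnact1 by 0.56 (0.17), B3gat3 by 0.43 (0.12) and Chsy1 by 0.43 (0.11). The calls of Chst12 (without Sham rat 17 or 38 or MI rat 89), B3gat3 (without Sham rat 32 or 38 or MI rat 61) and Csgalnact1 (without Sham rat 12, 17 or 38 or MI rat 61 or 89, and with rat 66 counted in MI) were lost. Of 5 CD44 partners and ligands, Spp1 (osteopontin, a ligand) rose by 3.41 (0.63) and the membrane protease Mmp14 by 0.92 (0.22). Spp1 was also highest in MI + UA rats 58 and 64, at 76.8 and 81.9 CPM, and in MI rat 89, at 61.2 CPM, which are the 3 rats with the most Cd44.

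**Figure D5:**
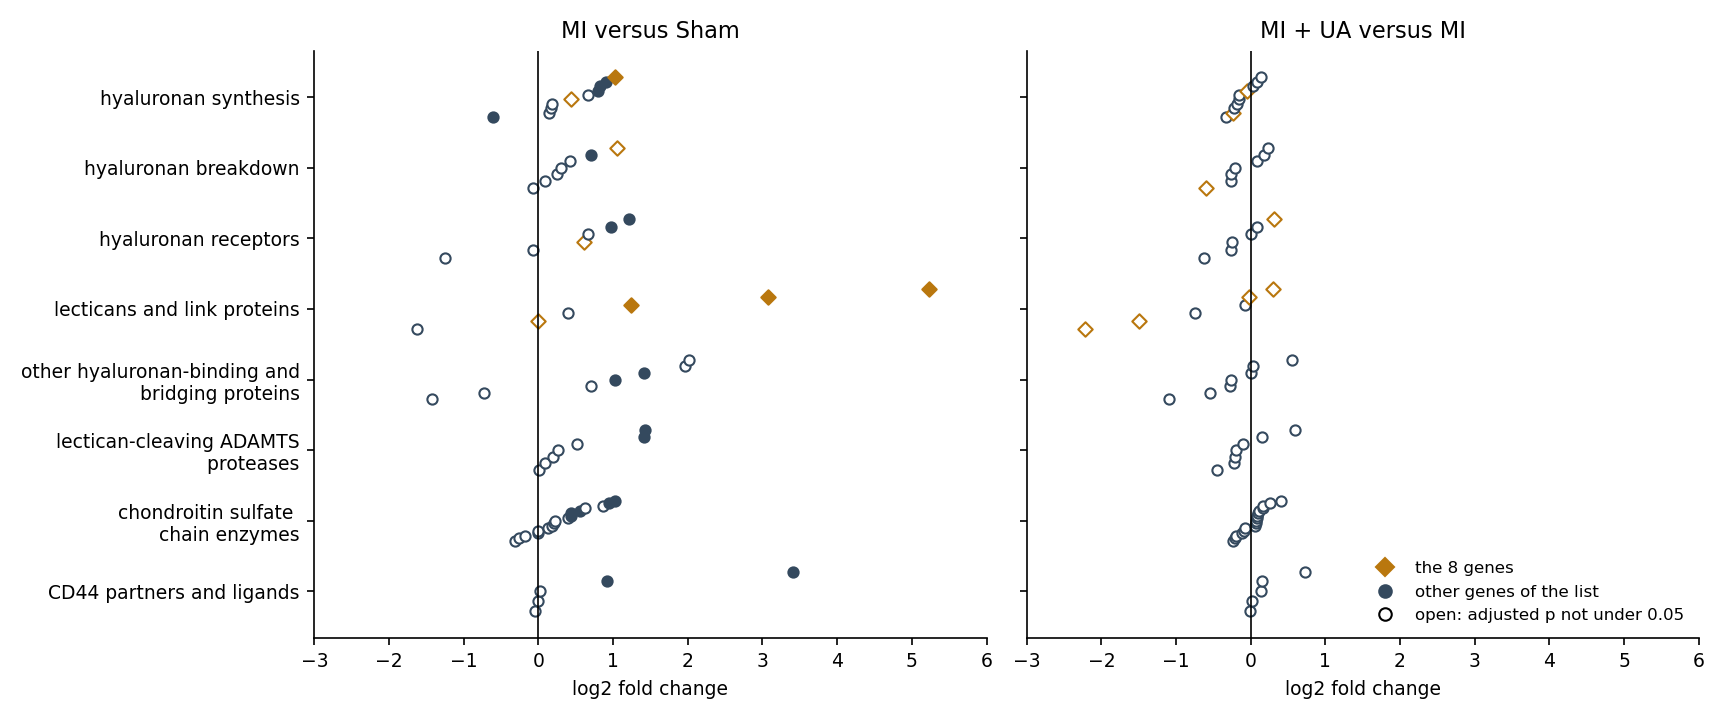
Log2 fold changes in MI versus Sham (left) and MI + UA versus MI (right) of the genes tested in 8 lists around hyaluronan and lecticans, with diamonds for the 8 genes described and filled points for adjusted p-values under 0.05. Filled points lie to the right of 0 in MI versus Sham except Ugp2 at -0.61, and there is none in MI + UA versus MI.

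To place each gene among the others, the genes with the most similar profile over the 12 rats were found as those with the smallest mean absolute difference in centred log2 CPM, among 10691 genes. For Vcan these were the matrix gene Prelp (0.12), Loxl2 (0.136), a collagen cross-linking enzyme, and Emp1 (0.137), with log2 fold changes of 1.1, 1.17 and 1.08 in MI versus Sham. For Cd44 they were Gpm6b (0.148), Gas7 (0.149) and Tmem176b (0.164). The likeness was looser for Has1, with Kctd15 (0.254), Adgrd1 (0.258) and Klra2 (0.265), and for Cemip, with Chrdl1 (0.461), Scara3 (0.48) and Rnf157 (0.494). Has2 had Alg9 (0.185), Rfx1 (0.191) and Scarb1 (0.2), and Hapln3 had Ttc39a (0.204), Aaas (0.209) and Hgh1 (0.236). For Acan the nearest were Tnc (1.069), C4a (1.125) and Chad (1.127) and for Hapln1 they were Fmod (0.564), Kcnma1 (0.565) and Col4a6 (0.57). Acan, Hapln1 and Cemip average less (log2 CPM of -1.05, -1.59 and 0.78) than the minimum of 1 set for the candidates. These likenesses are descriptions over rats that share the same groups.

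Library depth ranged from 6228706 to 19031695 reads on genes, of which 50.2% to 58.6% were mitochondrially encoded. Replicates of a group differed from each other by more than sampling noise (chi-square per degree of freedom from 1.89 to 15.7), so no library was counted as a repeat.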

How the data were processed

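Total RNA-seq of 12 rat heart sections was used, with 1 library per rat and groups taken from the sample labels. Per the labels and the study's methods, the authors aligned strand-specific read pairs to mRatBN7.2 (Ensembl 108) with STAR 2.6.1c, counted reads per gene with HTSeq and deposited raw counts, which were used unchanged. Whether counting used strand is not given in the sources used here, so reads of overlapping antisense genes cannot be told apart. The molecule is labelled polyA RNA although the protocol depletes ribosomal RNA. A further MI + UA library, left out by the authors, was not used here.

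Genes whose total reached at least 10 counts were fitted with edgeR 4.0.16 (R 4.3.3, TMM scaling, quasi-likelihood test, all 3 groups together), with Benjamini-Hochberg adjustment over 18182 genes and a threshold of 0.05. CPM values are TMM-scaled, log2 CPM uses a prior count of 1, and the standard error is the absolute log2 fold change divided by the square root of F. The labels do not tell of separate cohorts or batches. Count ratios within a rat (0.5 added to each count) were compared by two-sided exact permutation with scipy 1.17.1. Intervals of pooled ratios and 3-count limits cover counting error only, and gene lengths were not used, so levels are not compared between genes. The edgeR script was tested on simulated counts that had the same spread for all genes, with changes set only in genes averaging more reads than Hapln1. That test does not bear on calls as low as Hapln1 or as uneven as Acan.

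The 8 genes, the pathway lists and the marker lists were chosen with earlier results of these data known. Besides the 8 genes, the text names up to 4 genes per pathway list with the largest absolute change past the threshold in MI versus Sham, and the 3 genes most like each of the 8 (average log2 CPM of at least 1). Chsy1, Has3, Bcan, Hapln2, the other ADAMTS genes, Stab1 and B3gat3 at unadjusted p, Spp1 by rat and the cartilage genes were named after their values were seen. Pln, Krt19, Itih5 and Msn were not matched by symbol. Alternatives were DESeq2 1.42.0, its size factors in edgeR, TMM without mitochondrially encoded genes, other filters on low counts, 2-group fits, rat 66 counted in MI and leaving out each rat.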

Additional observations from a re-analysis of the deposited data

Results flagged for a closer look

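For each of the 8 genes in each group of 4 rats, the gap between the most extreme rat and its nearest neighbour was divided by the range of the group and set against Dixon's 95% critical value. Of the 24 groups examined 3 exceeded it. For normally distributed values chance gives about 1 in 20. Counts near 0 are not so distributed, so that rate does not apply to them and the flags are descriptions. Acan in MI had a ratio of 0.859, with rat 36 at 9.21 CPM and the next rat, 89, at 1.3 CPM. Hapln1 in MI had a ratio of 0.917, again from rat 36, at 2.41 CPM against 0.489 CPM in rat 89. Acan in Sham had a ratio of 1, because rat 32 had 2 counts and the other 3 Sham rats had 0, a difference that such counts cannot resolve. Rat 36 is also the MI rat with 405 Col2a1 counts, where the other 3 MI rats had 0.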

How the results depend on the processing

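The number of the 8 genes called in MI versus Sham was 4, and it ranged from 1 to 3 when each rat was left out and from 3 to 5 under the other settings. In MI + UA versus Sham it was 2, with ranges of 1 to 3 and 2 to 3, and in MI + UA versus MI it was 0 throughout the settings run. The 18 pathway genes called in MI versus Sham became 13 to 17 when each rat was left out and 16 to 19 otherwise. With rat 66 counted in MI, 5 values changed sign: in MI + UA versus MI the log2 fold change of Vcan became 0.12, that of Hapln3 -0.07, the log2 ratio of Acan to Vcan 0.84 and that of Hapln3 to Acan -0.90, and in MI versus Sham Hapln3 became 0.18. None of these passed the test before or after, and the cause was not tested. Leaving out each rat moved the log2 change of MI + UA versus MI from -2.2 to 0.58 for Acan, -0.10 to 0.08 for Vcan, -0.28 to 0.15 for Has2 and -0.01 to 0.48 for Cd44, that of Hapln3 in MI versus Sham from -0.22 to 0.28 and that of Cemip in MI + UA versus Sham from -0.06 to 0.78. In MI + UA versus MI it moved the ratio of Acan to Vcan from -1.53 to 0.87 and that of Hapln3 to Acan from -0.37 to 2.05, ratios that the 0.5 counts added set in rat 57, which had 0 Acan counts, so no direction is read from them. Acan passed in MI + UA versus Sham with no filter on low counts (adjusted p = 0.0475) and in the 2-group fit (0.0389). Without Sham rat 12, Has1 passed in MI + UA versus Sham (0.044). No other scaling moved the median of all genes by more than 0.0111 on the log2 scale. Under a stricter filter on low counts Hapln1 was not tested. No paired analysis was possible because each rat belongs to 1 group only and the groups share no replicate numbers. Hapln1 rested on 3 reads in Sham, 45 in MI and 10 in MI + UA, and Acan on 2 in Sham, which limits the precision of both.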
